A study of Mus musculus with 8 samples.

Results

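The vomeronasal type 1 receptor genes (*Vmn1r*) were described as a family in liver DNA methylation data from mice of 2 inbred strains and their reciprocal crosses. Members were the genes of the mm9 annotation (GENCODE M1) whose symbol starts with *Vmn1r*, each taken with 10 kb on either side. There were 254 such genes among 33924 in the annotation, 202 of them protein coding and 52 pseudogenes. The family was selected on the methylation differences between the parental strains: genomic windows with many such differences contained *Vmn1r* genes, and all genes of that name were then taken. Parental strain differences are therefore given below as a description, with counts and levels and no p-value.

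*Vmn1r* genes encode G protein-coupled receptors that detect pheromones and other chemical signals in the apical sensory neurons of the vomeronasal organ. Each neuron expresses very few of them, and the signal runs through the G protein subunit Gnai2 and the ion channel Trpc2. The coding region has no intron, the genes lie in large clusters of close copies, and the receptors have no known role in liver.

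The libraries came from the livers of 8 mice. They were a female and a male of C57BL/6J (B6), of DBA/2J (DBA), of BXD (B6 mother and DBA father) and of DXB (DBA mother and B6 father), all 16 weeks old and fasted for 16 h. DNA was cut with MspI, which cuts at CCGG, and sequenced after bisulfite conversion (reduced representation bisulfite sequencing), so that the methylation level of a cytosine is the percentage of its reads in which it stayed a cytosine. There was 1 mouse for each strain and sex, so a difference between 2 mice has no replicate check, and an interval on a level covers counting error only.

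A cytosine was used where it had at least 10 reads, and the cytosines of a CG were counted separately on each strand. Near *Vmn1r* genes the libraries held between 2087 (DBA male) and 7209 (B6 female) such cytosines, with a mean of 43.7 to 93.7 reads a cytosine. In the BXD female and both DXB mice 100% of all cytosines lay within 50 bases of an MspI cut, against 50.7% to 66.2% in the other 5 mice. The B6 male library stood apart in the reads that SNPs sorted to a strain, counted at each cytosine they cover. On the autosomes 83.9% of these counts were sorted to B6, against 99.7% in the B6 female. Near *Vmn1r* genes the B6 male's share was 99.1%. These counts came only from the clusters of *Vmn1r-ps25* to *Vmn1r54* on chromosome 6 and of chromosome 17. Within 1 Mb of the cluster on chromosome 13 the share was 70.2%. Each mouse was 1 library, so what belongs to the mouse and what to its library cannot be told apart.

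The family fell into 15 clusters, counting genes less than 1 Mb apart as a cluster, and 5 of these were single genes. Chromosome 7 held 137 genes, chromosome 6 held 59 and the other chromosomes 58, with 36 of these on chromosome 13 and 15 on chromosome 17. The 5.19 Mb around the genes were poorer in the sequences the assay reads than the autosomes and X together. They had 5.34 CGs per kb against 8.34, and 43.1 MspI sites per 100 kb against 62.3. A CG with 10 reads in any mouse was found within 10 kb of 115 of the 254 genes, namely 33 on chromosome 6, 54 on chromosome 7 and 28 elsewhere. Within the gene itself such a CG was found for 8 genes, *Vmn1r1*, *Vmn1r8*, *Vmn1r20*, *Vmn1r26*, *Vmn1r-ps30*, *Vmn1r65*, *Vmn1r69* and *Vmn1r90*. The levels below therefore describe mainly the DNA between the receptor genes. Of the 839 CGs read in any mouse, 40 lay inside another annotated gene.

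CG methylation near the family was high in every mouse. Over each mouse's own CGs the mean level was 82.0% in the B6 female, 81.0% in the B6 male, 77.2% and 78.0% in the DBA female and male, 83.3% in the BXD female, 82.3% in the BXD male, 83.9% in the DXB female and 81.8% in the DXB male. Both DBA mice were below the other 6. The same held near the odorant receptor genes (*Olfr*), with 72.6% and 72.4% in the DBA female and male against 74.5% to 78.8%. Near the other vomeronasal receptor genes (*Vmn2r*) it did not, since the B6 male (72.5%) was below the DBA female (77.4%). The family's mean over mice was 81.2% ± 2.40 (SD, n = 8). By location the mean was 78.2% ± 4.0 on chromosome 6, 83.5% ± 1.86 on chromosome 7 and 84.9% ± 1.90 on the other chromosomes. Without a stretch of 1146 bp near *Vmn1r53*, described below, chromosome 6 averaged 85.2% ± 1.63 over each mouse's own CGs. By this measure it no longer stood below the others. On chromosome 6 the DBA female had 71.2% and the DBA male 73.4%, both below the other 6 mice (77.6% to 82.3%). On chromosome 7 they had 81.0% and 82.2%, just below the other mice (82.5% to 86.9%), and on the other chromosomes 83.7% and 88.9%, where the other mice had 83.0% to 86.0%.

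**Figure D1:**
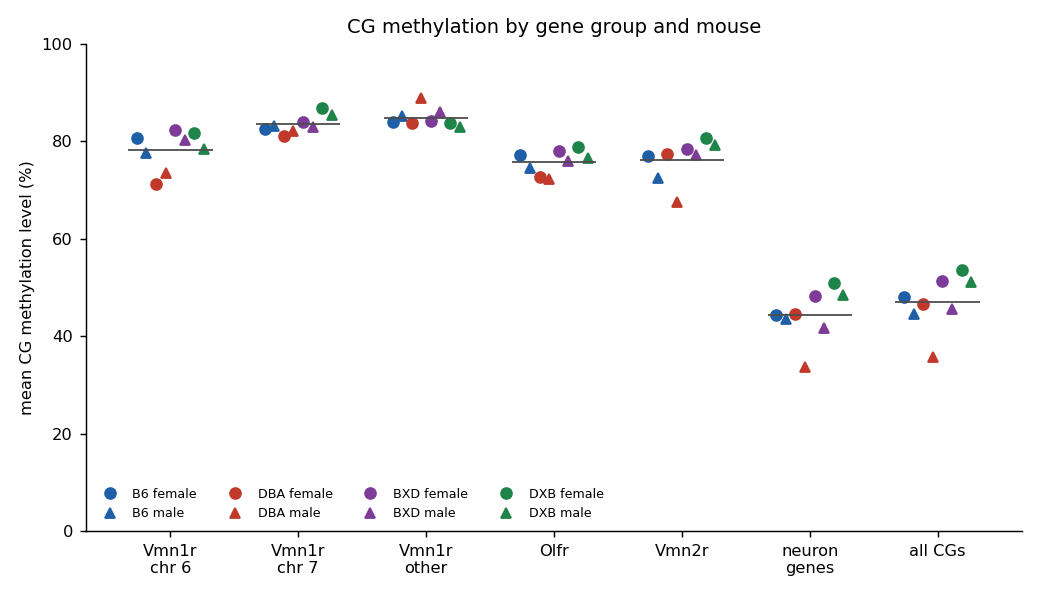
Mean CG methylation level (%) of each mouse (circles, females; triangles, males; colors, strain or cross) over its own CGs with at least 10 reads, for *Vmn1r* genes on chromosome 6, chromosome 7 and other chromosomes, for *Olfr* and *Vmn2r* genes, for vomeronasal neuron genes and for all CGs. Horizontal lines are means of the 8 mice, and the 3 *Vmn1r* groups sit between 78.2% and 84.9% while all CGs sit at 47.1%.

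Levels differed by position relative to the gene and by sequence context. CGs inside the genes averaged 87.3% ± 3.29 (n = 8 mice, 13 to 38 CGs a mouse), CGs downstream 85.6% ± 0.978 and CGs upstream 75.9% ± 4.68. The upstream mean was 67.7% for the DBA female, 69.7% for the DBA male and 76.6% to 80.9% for the others. The CGs between *Vmn1r53* and *Vmn1r-ps34*, described below, all count as upstream, and without them the upstream mean was 82.3% ± 2.47, with 79.8% for the DBA female and 78.9% for the DBA male. Outside CG, levels were near 1% or lower in every mouse, the highest being those of the DXB female (1.17% for CHG and 1.12% for CHH). CHG cytosines (H is A, C or T) averaged 0.643% ± 0.261 and CHH cytosines 0.609% ± 0.263, beside 0.742% ± 0.268 and 0.789% ± 0.276 for all CHG and CHH cytosines.

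To compare the same sites in every mouse, 84 CGs with at least 10 reads in all 8 mice were used, 48 on chromosome 6, 22 on chromosome 7 and 14 elsewhere. Their mean level was 87.2% in the B6 female, 85.1% in the B6 male, 82.2% and 82.9% in the DBA female and male, 86.3% in the BXD female, 86.8% in the BXD male, 84.4% in the DXB female and 83.7% in the DXB male. All 8 mice thus lay within 5 points of each other, and the mean was 84.8% ± 1.83 (SD, n = 8). By location it was 80.6% ± 2.76 on chromosome 6, 91.4% ± 0.678 on chromosome 7 and 88.8% ± 1.80 on the other chromosomes. The 36 CGs of chromosome 6 that remain without the 12 of *Vmn1r53* averaged 87.9% ± 0.879, still the lowest mean of the 3 locations at these shared sites. Of the 84 CGs, 49 were at 80% or more in all 8 mice and 0 were under 20% in all 8.

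The family was more methylated than all CGs of the assay at sites read in every mouse. All 176951 such CGs averaged 43.4% ± 0.488, and the family was 41.4 ± 1.71 points higher (higher in 8 of 8 mice, two-sided exact permutation test by sign flips, p = 0.00781, adjusted p = 0.0130 over 5 tests). Its mean was also above those of the other large chemoreceptor families. *Olfr* genes, which encode the odorant receptors of the nose (306 CGs near 1249 genes), averaged 78.0% ± 0.696, and the family was 6.78 ± 1.47 points higher (8 of 8 mice, same exact test and p). *Vmn2r* genes, which encode the receptors of the basal vomeronasal neurons (79 CGs near 179 genes), averaged 74.8% ± 1.48, and the family was 10 ± 0.890 points higher (8 of 8 mice, same exact test and p). Medians were closer than means: over each mouse's own CGs they ran from 87.5% to 90.0% near *Vmn1r* genes, from 85.7% to 88.7% near *Olfr* genes and from 82.4% to 89.4% near *Vmn2r* genes. The share of CGs under 20% ran from 0.931% to 8.12% near *Vmn1r* genes, from 7.74% to 12.6% near *Olfr* genes and from 5.02% to 16.6% near *Vmn2r* genes. Over all CGs read, medians ran from 11.7% to 70.1% and the share under 20% from 34.7% to 53.7%. Over each mouse's own CGs the mean difference from *Vmn2r* genes was 4.91 points (exact p = 0.0156), and the DBA female was slightly the other way, with 77.2% for the family and 77.4% for *Vmn2r* genes. The p of 0.00781 is the smallest that 8 mice allow, and it asks whether the sign holds over these mice at these CGs. At these sites females averaged 85.0% ± 2.21 and males 84.6% ± 1.70 (n = 4 each), a difference of 0.39 points (two-sided exact permutation test, p = 0.800, adjusted p = 0.800). F1 mice averaged 85.3% ± 1.49 and parents 84.4% ± 2.24 (n = 4 each), a difference of 0.94 points (same exact test, p = 0.514, adjusted p = 0.643). With 4 mice against 4 the smallest p is 0.0286.

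**Figure D2:**
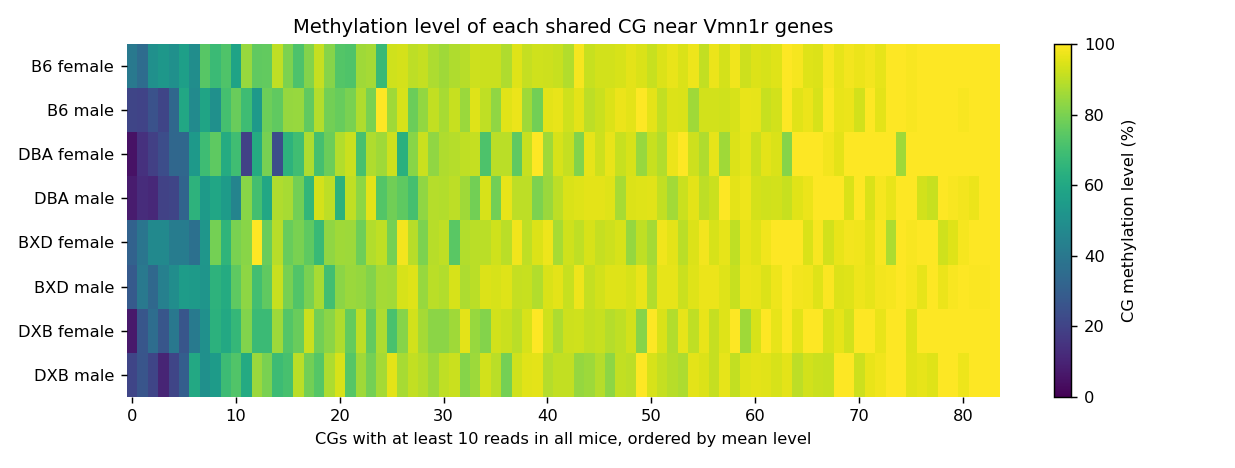
Methylation level (%, color) of each of the 84 CGs near *Vmn1r* genes with at least 10 reads in all 8 mice, 1 column a CG, ordered by mean level, with 1 line a mouse. The low levels are gathered in the columns at the left edge, and 49 CGs are at 80% or more in every mouse.

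By nearest gene, the 84 CGs fell to 36 genes, and 22 of these were at 80% or more in every mouse. The genes with the most such CGs within 10 kb were *Vmn1r53* (12), the pseudogene *Vmn1r-ps34* (8, all shared with *Vmn1r53*), *Vmn1r42* (7), *Vmn1r86* (4) and *Vmn1r178* (4). *Vmn1r86* on chromosome 7 averaged 95.6% and *Vmn1r178* on chromosome 7 averaged 97.6%. *Vmn1r42* on chromosome 6 had its lowest level, 76.1%, in the DBA male and its highest, 84.7%, in the B6 male (mean 79.8% ± 2.89). *Vmn1r53* was the lowest of the 36, at 70.6% in the B6 female, 59.2% in the B6 male, 40.7% and 53.5% in the DBA female and male, 68.0% in the BXD female, 67.9% in the BXD male, 58.8% in the DXB female and 53.2% in the DXB male. The DBA female was lowest there and the B6 female highest, so all other mice lay between them. Set against the male parents, both BXD mice were above both males, and the DXB male was below both. Chosen after their values were seen, the next lowest were *Vmn1r205* on chromosome 13 (71.5% ± 5.15), *Vmn1r170* on chromosome 7 (74.4% ± 4.36) and *Vmn1r29* on chromosome 6 (75.5% ± 8.60), and the highest was *Vmn1r1* on chromosome 1 (98.7%). Only *Vmn1r90* had a shared CG within the gene, at chr7:15183751, where levels ran from 72.2% to 94.6% over the 8 mice. The annotated gene spans 92.4 kb, and this CG lies outside its coding exons.

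Genes of the vomeronasal neuron that are not receptors gave a wide spread of levels in the same livers. Of the 10 genes found, *Trpc2*, the channel of the pheromone response, was the most methylated (96.3% ± 1.05 over 5 shared CGs, n = 8 mice). *Gng8* (91.4% ± 1.67), a G protein subunit, and *Omp* (77.0% ± 6.47), the olfactory marker protein, were also high. *Gnao1*, the G protein subunit of the *Vmn2r* neurons, had 64.2% ± 1.19 and *Gnai2*, its counterpart in *Vmn1r* neurons, which many tissues express, had 37.8% ± 1.85. *Ano2* (78.2% ± 3.34), *Bcl11b* (46.5% ± 1.07), *Meis2* (39.7% ± 4.15), *Ano1* (30.1% ± 1.29) and *Plcb2* (8.24% ± 1.99) covered the rest of the range.

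Strain differences were counted by the rule of the study. A cytosine was called where both mice had at least 10 reads, each level lay outside the exact 95% interval of the other, and the levels differed by more than 50 percentage points. Between the female parents 17 of 5522 cytosines near the family were called, where 0.0955% of all tested cytosines were. Among CGs it was 16 of 569, where 0.549% of all CGs were called, and all 16 were more methylated in B6. Outside CG it was 1 of 4953, where 0.0279% of all such cytosines were called. By location, 16 of the 17 lay on chromosome 6 (of 2086 tested), 1 on chromosome 7 (of 2260) and 0 elsewhere (of 1176). Just inside the threshold were differences of 50.2, 52.6 and 52.8 points, and just outside were 46.2, 48.2 and 49.7 points.

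Between the male parents 0 of 1280 cytosines were called, where 0.101% of all tested cytosines were. Among them, 0 of 155 CGs were called, where 0.423% of all CGs were, and 0 of 1125 outside CG, where 0.0333% were. The largest male differences were 32, 40.3 and 48.7 points. The males were read less deeply near the family, with means of 43.7 (B6) and 51.9 (DBA) reads a cytosine. The females had 70.9 and 75.0. Most cytosines called in the females lacked 10 reads in a male parent and were not tested there. Of 15 female calls in a stretch of chromosome 6, described below, the B6 male had 10 reads at 6 and the DBA male at 6. These were mostly different CGs, and both males had 10 reads only at chr6:90182509 and chr6:90182515. At these CGs the DBA male was the higher, with 82.1% and 88.1% against 68.9% and 75.4% in the B6 male. Whether depth accounts for the 0 male calls was not tested.

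**Figure D3:**
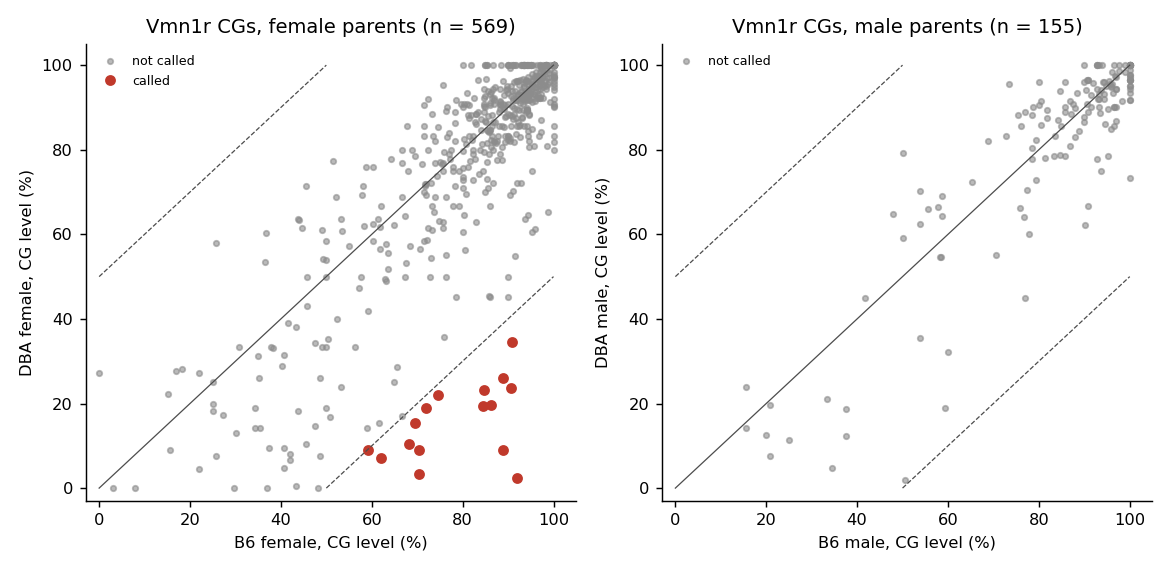
CG methylation level (%) in DBA against B6 for each CG near *Vmn1r* genes with at least 10 reads in both mice, for the female parents (left, n = 569) and the male parents (right, n = 155). The solid line marks equal levels and the dashed lines 50 points of difference, and the 16 called CGs (red) of the females all lie on the side of higher methylation in B6.

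The female calls sat in few fragments. They occupied 7 of the 148 MspI fragments tested near the family, and 5 fragments with at least 2 calls held 15 of the 17. In the genome as a whole, 6527 female calls lay in 5215 fragments, of which 901 had at least 2 calls and held 2213 of them. The 5 fragments lay close together on chromosome 6, with short gaps between some of them, in 1146 bp at chr6:90182305-90183450. The 15 called cytosines in them spanned 942 bp. This stretch lies between *Vmn1r53* (ENSMUSG00000057697.2, minus strand, chr6:90173311-90174432), whose start is 8077 bp from the first called CG, and the pseudogene *Vmn1r-ps34* (ENSMUSG00000068228.2, plus strand, chr6:90192266-90193237), so both genes have 15 calls within 10 kb. Its first 5 called cytosines fall inside another pseudogene, *Gm20426* (chr6:90181722-90182782), 3 of them in its intron and 2 in an exon, and the other 10 lie between genes. The 5 fragments are shown because they hold nearly all strain calls of the family. They are the plus strand of the mm9 reference, and capitals mark each CG that holds a called cytosine on either strand.
chr6:90182305-90182515: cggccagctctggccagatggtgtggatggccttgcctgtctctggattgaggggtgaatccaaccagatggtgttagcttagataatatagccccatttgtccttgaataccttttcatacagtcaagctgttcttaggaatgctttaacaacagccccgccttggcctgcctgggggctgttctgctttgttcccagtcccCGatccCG
chr6:90182514-90182764: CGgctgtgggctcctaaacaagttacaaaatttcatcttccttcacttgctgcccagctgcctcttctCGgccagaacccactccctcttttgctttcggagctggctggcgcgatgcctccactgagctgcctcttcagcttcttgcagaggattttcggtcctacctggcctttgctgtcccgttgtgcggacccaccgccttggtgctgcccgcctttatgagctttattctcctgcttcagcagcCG
chr6:90182846-90182993: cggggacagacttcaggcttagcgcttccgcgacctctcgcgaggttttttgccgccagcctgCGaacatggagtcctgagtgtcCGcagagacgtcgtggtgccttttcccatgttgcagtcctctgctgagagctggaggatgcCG
chr6:90183012-90183238: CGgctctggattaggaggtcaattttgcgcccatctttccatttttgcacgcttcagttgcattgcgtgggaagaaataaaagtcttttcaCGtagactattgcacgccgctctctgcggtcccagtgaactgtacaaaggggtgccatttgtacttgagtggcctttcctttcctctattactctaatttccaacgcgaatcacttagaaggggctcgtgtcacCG
chr6:90183321-90183450: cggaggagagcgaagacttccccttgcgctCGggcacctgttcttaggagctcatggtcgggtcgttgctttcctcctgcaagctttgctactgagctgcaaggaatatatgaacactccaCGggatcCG

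The stretch is denser in CGs than the other fragments near the family, with a median of 5.29 against 2.31 CGs per 100 bp. At the 15 called cytosines the B6 female ran from 59.3% to 90.9% and the DBA female from 3.45% to 34.5%. At chr6:90183352, for example, the B6 female had 70.5% of 44 reads (exact 95% interval 54.8 to 83.2) and the DBA female 3.45% of 29 (0.0873 to 17.8). In the other mice fewer of the 15 had 10 reads. The B6 male averaged 58.6% over 6 of them and the DBA male 47.5% over 6. The BXD female averaged 68.1% over 8, the BXD male 60.1% over 12, the DXB female 64.7% over 8 and the DXB male 46.4% over 8. These averages cover different CGs in different mice and are set side by side only.

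Over the 8 CGs of the stretch with 10 reads in all 8 mice, the mean level was 57.6% in the B6 female, 40.5% in the B6 male, 21.5% and 34.4% in the DBA female and male, 52.6% in the BXD female, 53.2% in the BXD male, 41.1% in the DXB female and 32.5% in the DXB male. The female parents were 36.1 points apart and the male parents 6.18 points apart at the same CGs. The 2 mice of a strain also differed, by 17 points in B6, with the female higher, and by 12.9 points in DBA, with the male higher. The 2 DXB mice were 8.63 points apart and the 2 BXD mice 0.573 points apart. In this mean the strains did not overlap in the 4 parents, yet the gap between the males was smaller than either gap within a strain. At single CGs the strains did overlap. The DBA male was above the B6 male at chr6:90182509 (82.1% against 68.9%) and chr6:90182515 (88.1% against 75.4%), and below it at the others. At chr6:90182884 the DBA female (23.8%) was above the B6 male (20.8%). No read in the stretch carried a SNP tag in any mouse, so the B6 and DBA chromosomes of the F1 mice were not separated there.

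**Figure D4:**
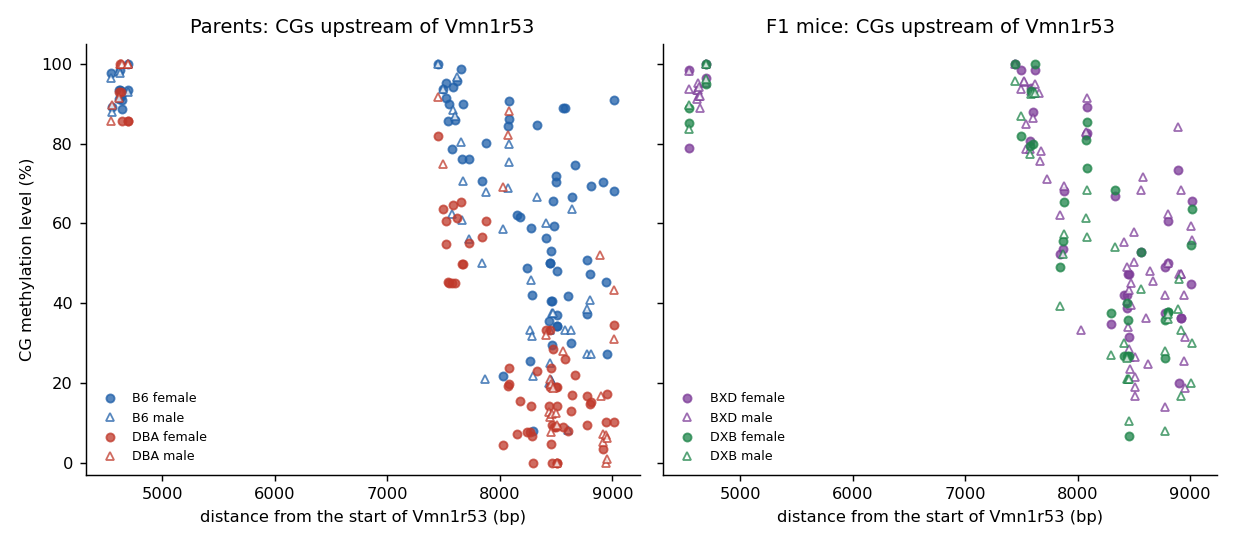
Methylation level (%) of each CG with at least 10 reads between *Vmn1r53* and *Vmn1r-ps34*, against the distance (bp) upstream of the start of *Vmn1r53*, for the 4 parents (left) and the 4 F1 mice (right); filled circles are females and open triangles males. The called CGs begin 8077 bp upstream, and at the 15 called ones the DBA female lies at 3.45% to 34.5% and the B6 female at 59.3% to 90.9%, while uncalled CGs among them lie closer together.

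By fragment, the mice were not ordered the same way along the stretch. In the fragment at chr6:90182305-90182515 the DBA female averaged 15.8%, while the DBA male averaged 79.8% and the other 6 mice 55.9% to 74.9%. In the fragment at chr6:90182846-90182993 both DBA mice were low, the female at 14.5% and the male at 15.5%, where the B6 female had 50.9%, the B6 male 31.9% and the F1 mice 24.8% to 43.2%. Next to the stretch, the fragment at chr6:90181879-90182053 was lower in the DBA female (56.8%) than in the other 7 mice (83.3% to 93.2%). In the fragment between, at chr6:90182090-90182306, the DBA female (56.2%) was not the lowest, since the DXB male had 48.3%. These means cover each mouse's own CGs in the fragment. Without the stretch, the family's level was 83.7% in the B6 female, 84.2% in the B6 male, 82.3% in the female of DBA and 83.5% in the male. The 4 parents thus lay closer together there than with the stretch, and the F1 mice lay between 84.6% and 86.1%.

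Mice of the same strain gave calls at several of the same sites. Between the B6 female and male 2 of 3167 cytosines near the family were called (0.0720% of all tested autosomal cytosines), between the DBA mice 3 of 1511 (0.0617%), between the BXD mice 2 of 2186 (0.0367%) and between the DXB mice 0 of 2378 (0.00944%). All 3 calls of the DBA mice were in the stretch. At chr6:90182515 the DBA female had 23.7% of 93 reads and the DBA male 88.1% of 84, and at chr6:90182465 they had 4.49% of 89 and 69.1% of 84. At the first of these the B6 female had 90.6%, the B6 male 75.4%, the BXD female 89.1%, the BXD male 91.5%, the DXB female 85.3% and the DXB male 68.5%, so that the DBA female alone was low. One of the B6 calls was also in the stretch, at chr6:90183012, with 88.9% of 63 reads in the female and 33.3% of 12 in the male. The other was near *Vmn1r-ps64*, at chr7:12791840, with 35.3% and 88.2% of 17 reads each.

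Outside the stretch, the female parents had 1 call on chromosome 7 and 1 more on chromosome 6. The first was a CG at chr7:5949683, between genes and 9669 bp downstream of *Vmn1r65* (ENSMUSG00000066850.1, minus strand, chr7:5959352-5962612). The B6 female had 91.9% of 161 reads (exact 95% interval 86.6 to 95.6), the B6 male 92.7% of 41, the DBA female 2.27% of 44 (0.0575 to 12.0) and the DBA male 0.00% of 8. The BXD female had 58.4% of 77, the BXD male 37.9% of 198, the DXB female 41.9% of 43 and the DXB male 37.2% of 43. Both B6 mice were high, both DBA mice were at or near 0, and all 4 F1 mice lay between the strains. The second was a CHH cytosine at chr6:57967836, in an exon of the ribosomal protein pseudogene *Rps15-ps2* and 8640 bp upstream of *Vmn1r26* (ENSMUSG00000048697.3). It had 0.00% of 20 reads in the B6 female, 58.3% of 12 in the DBA female, 80% of 5 in the DBA male, 43.1% of 58 in the BXD male and no reads in the other mice. Its context is that of the mm9 reference. Whether the neighboring base differs in DBA, which could make it a CG there, was not tested. Both fragments are shown on the plus strand of mm9, with the called CG or base in capitals, since each holds a call that stands alone among its neighbors.
chr7:5949561-5949718: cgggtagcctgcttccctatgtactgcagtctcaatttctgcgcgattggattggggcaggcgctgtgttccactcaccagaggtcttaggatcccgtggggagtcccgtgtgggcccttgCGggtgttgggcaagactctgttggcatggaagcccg
chr6:57967759-57967888: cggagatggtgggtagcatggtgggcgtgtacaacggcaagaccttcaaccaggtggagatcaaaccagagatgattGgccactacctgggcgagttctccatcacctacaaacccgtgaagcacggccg

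A CG near *Vmn1r42*, the gene with the third most shared CGs, repeated the pattern of the chromosome 7 site in both sexes. It lies at chr6:89786514, between genes and 7998 bp from *Vmn1r42* (ENSMUSG00000068232.2, minus strand, chr6:89794512-89795609), and was chosen after its values were seen. The B6 female had 43.4% of 136 reads, the B6 male 50.6% of 178, the DBA female 0.546% of 183, the DBA male 1.85% of 54 and the BXD male 26.7% of 251. The other F1 mice had no reads at this CG. Both differences between parents stayed under 50 points, so the CG was not called. In the BXD male, reads with a SNP tag separated the chromosomes, with 66 of 135 reads methylated on the B6 chromosome and 1 of 116 on the DBA chromosome. At the 4 other CGs of the fragment with 10 tagged reads from both chromosomes, the 2 chromosomes differed by at most 4.86 points. The fragment is shown with this CG in capitals (plus strand, mm9).
chr6:89786391-89786587: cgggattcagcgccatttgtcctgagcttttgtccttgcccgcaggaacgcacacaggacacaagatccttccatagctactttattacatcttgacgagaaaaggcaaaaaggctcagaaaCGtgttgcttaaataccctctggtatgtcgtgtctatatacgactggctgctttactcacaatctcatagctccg

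Across the F1 mice, only the BXD male had tagged reads near the family. It had 114 cytosines with 10 reads from each chromosome, 14 of them CGs, and 0 were called, where 1.01% of all such cytosines in this mouse were. A call in at least 2 F1 mice, the rule set here, could not be examined at any cytosine of the family. Besides the site near *Vmn1r42*, the 13 other CGs differed by between -8.00 and 18.0 points, B6 minus DBA. At a CG where DBA is at or near 0, a thymine in place of the cytosine in DBA DNA would give the same reads. C/T SNPs were left out of the SNP tags, so a difference in methylation and a difference in base cannot be told apart at chr7:5949683 and chr6:89786514.

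The 2 calls between the BXD female and male fell where the 3 libraries with cytosines only within 50 bases of a cut differed from the rest. At chr4:3102317, 2130 bp from *Vmn1r2*, the level was 100% of 60 reads in the B6 female, 100% of 18 in the DBA female, 100% of 45 in the DBA male and 93.5% of 31 in the BXD male. It was 4.10% of 244 in the BXD female, 5.93% of 253 in the DXB female and 4.10% of 244 in the DXB male. At chr17:20974616, near *Vmn1r230*, it was 64.5% of 76 in the B6 female, 76.0% of 25 in the B6 male, 85.7% of 21 in the DBA male and 75.6% of 86 in the BXD male. There it was 12.8% of 195 in the BXD female, 11.9% of 101 in the DXB female and 11.1% of 126 in the DXB male. At both sites these 3 libraries were low and the rest high, whatever the strain or sex. Both fragments are shown with the CG in capitals (plus strand, mm9).
chr4:3102208-3102317: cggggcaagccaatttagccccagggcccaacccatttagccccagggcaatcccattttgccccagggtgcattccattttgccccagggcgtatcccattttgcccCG
chr17:20974502-20974653: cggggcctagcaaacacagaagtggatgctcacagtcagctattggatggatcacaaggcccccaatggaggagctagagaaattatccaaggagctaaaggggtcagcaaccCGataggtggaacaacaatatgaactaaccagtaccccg

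Reaching out to 20 kb from the genes gave 24 calls in the males among 2673 cytosines tested, where 0.101% of all were called. Of these, 21 were cytosines outside CG in 1 fragment of chromosome 7, between *Vmn1r120* and the pseudogene *Vmn1r-ps74*. In it the DBA male had 63.6% to 72.7% of 10 to 11 reads, the B6 male 3.57% to 22.2% of 26 to 28, the DBA female 0% of 10 to 11, the B6 female at most 1.82% and the BXD male at most 3.06%. The DBA male thus stood alone in that fragment, on at most 11 reads. At chr6:57293339 and chr6:57293365, near *Vmn1r17*, the B6 male was the low one, with 46.9% and 40.6% of 32 reads, against 100% of 21 at both in the DBA male and 88.9% to 100% in the F1 mice. The 24th call was a CG also found in the females. This CG, at chr1:184071660 and 15615 bp from *Vmn1r1*, had 67.2% of 119 reads in the B6 female, 69.9% of 103 in the B6 male, 0% of 159 and 0% of 12 in the DBA female and male, and 34.4% of 128 in the BXD male. The fragment of the DBA male is shown with the called cytosines in capitals (plus strand, mm9).
chr7:21861811-21861979: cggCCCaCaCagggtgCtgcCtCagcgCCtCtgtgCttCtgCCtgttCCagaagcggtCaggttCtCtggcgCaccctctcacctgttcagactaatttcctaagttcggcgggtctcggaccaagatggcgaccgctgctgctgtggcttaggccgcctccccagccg

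Reads were missing from DBA in part of the family. Of 290 fragment ends near the family with 10 reads in the B6 female, 15 had none in the DBA female (5.17%, where it was 7.64% of all ends). In the other direction it was 1 of 226 (0.442%, where it was 0.0152%). In the males, 44 of 175 ends of the B6 male had none in the DBA male (25.1%, where it was 24.2%), and 1 of 110 ends of the DBA male had none in the B6 male (0.909%, where it was 2.41%). The shares from B6 to DBA were thus near those of the genome. The cluster from *Vmn1r91* to *Vmn1r183* on chromosome 7, with 78 genes, held 11 of the 15 female losses among its 32 ends (34.4%). The other chromosome 7 clusters held 1 among 89, and chromosome 6 held 0 among 107. In the males the losses were spread otherwise, with 9 of 23 ends (39.1%) in that cluster, 12 of 29 (41.4%) in the cluster from *Vmn1r66* to *Vmn1r-ps69*, where the females lost 1 of 47, and 10 of 70 (14.3%) on chromosome 6. At the 15 ends the DBA male had reads at 1 end (6.67%), and at most 2 reads there. The B6 male had reads at 12 (80%), the BXD male at 14 (93.3%) and the other F1 mice at 10 each (66.7%). Of all such ends of the genome, 17.8% had reads in the DBA male, 72.5% in the B6 male and 84.05% in the BXD male. For the other F1 mice that share was 87.8% to 88.2%.

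The DNA that was read near the family resembled other DNA of the genome more than most covered DNA does. For each of the 322 fragment ends near the family with 10 reads in any mouse, the first 50 bases after bisulfite conversion were compared with all 3185718 ends of MspI fragments in the reference. The median number of mismatches to the most similar other end was 1, and 75.2% of the ends had at most 3. For every 400th covered end outside the family the median was 12, and 14.9% had at most 3. For *Olfr* genes these values were 2 and 58.7%, and for *Vmn2r* genes 1 and 74.5%. On chromosome 6 the share with at most 3 mismatches was 78.3%, on chromosome 7 it was 78.2% and on other chromosomes 63.8%. Of the 242 ends with at most 3 mismatches, 14 had their most similar end near another or the same *Vmn1r* gene, and the rest elsewhere in the genome.

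**Figure D5:**
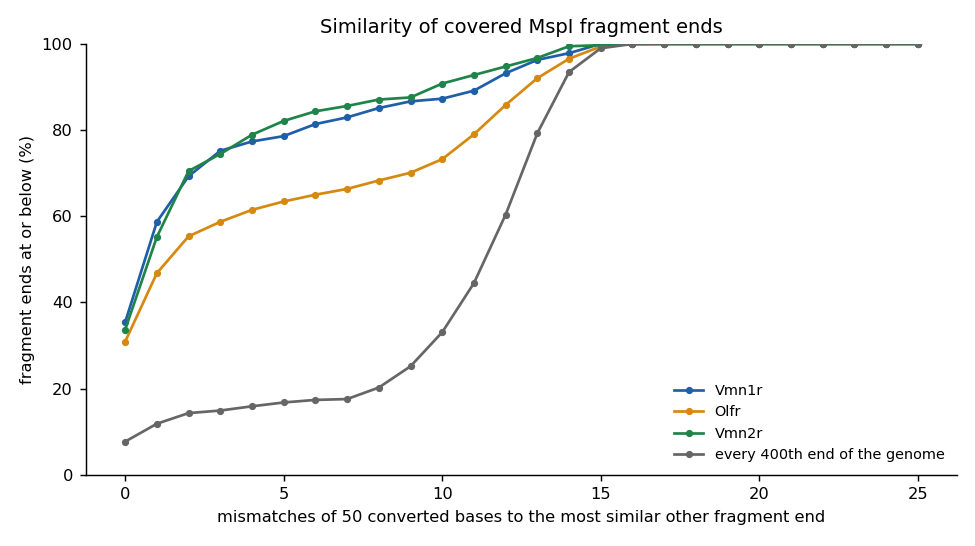
Cumulative share (%) of covered MspI fragment ends against the number of mismatches, of 50 bisulfite-converted bases, to the most similar other end in the mm9 reference, for ends near *Vmn1r*, *Olfr* and *Vmn2r* genes and for every 400th covered end of the genome outside the *Vmn1r* family. At 3 mismatches the *Vmn1r* curve is at 75.2% and the genome curve at 14.9%.

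In the 3 libraries with cytosines only within 50 bases of a cut, ends with an identical other end were read less often than the rest. The 114 ends with an identical other end (0 mismatches) had 10 reads in 90.4% of cases in the B6 female and 87.7% in the BXD male, and in 64.9% in the DBA female, 36.0% in the B6 male and 24.6% in the DBA male. They had 10 reads in 20.2% of cases in the BXD female, 21.1% in the DXB female and 19.3% in the DXB male, which are the 3 libraries. For the 128 ends with 1 to 3 mismatches, these 3 libraries had 10 reads in 89.1%, 85.2% and 83.6% of cases, and the other 5 in 49.2% (DBA male) to 91.4% (B6 female). For the 80 ends with at least 4 mismatches, these 3 libraries had 10 reads in 92.5%, 90.0% and 83.8% of cases, the B6 female in 87.5%, the BXD male in 75.0%, the DBA female in 76.2%, the B6 male in 66.2% and the DBA male in 23.8%. The share in these 3 libraries was thus low at identical ends and about equal in the other classes. The mean CG level ran over the 8 mice from 79.7% to 84.2% at ends with 0 mismatches, from 82.5% to 86.8% at ends with 1 to 3, where it was the highest of the classes in each mouse, and from 76.6% to 84.3% at ends with 4 or more.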

How the data were processed

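Liver DNA of 8 mice was read by reduced representation bisulfite sequencing. The authors cut DNA with MspI, selected fragments by size, aligned reads to mm9 with BS Seeker, kept uniquely aligned reads, and sorted reads by SNPs between B6 and DBA, leaving out C/T SNPs. The deposited files hold, for each cytosine and mouse, counts of unmethylated and of methylated reads by SNP class, beside the level as a fraction. Counts were summed over classes, levels were recomputed, and cytosines under 10 reads were left out. Cytosines matched the mm9 reference in base and context at 100%. The deposited tables of the authors' own comparisons, with 12 columns of single-mouse values, were not used.

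The 257 annotation records starting with *Vmn1r* gave 254 symbols. The members and lists were chosen with earlier results of these data known. Named genes were those with a call within 10 kb, the 5 with the most CGs read in all mice and those with such a CG in the gene; other genes named in the text were chosen after their values were seen. Of 11 vomeronasal neuron genes listed, 10 were found by symbol. Calls followed the rule of the study with exact (Clopper-Pearson) 95% intervals. Levels were averaged over CGs and compared over mice by two-sided exact permutation tests, with Benjamini-Hochberg adjustment over 5 tests. A fragment end is 50 bases next to an MspI cut. Alternatives changed the read minimum and the difference required, or used adjusted Fisher's exact tests, untagged reads, gene bodies, thinned coverage, read weights and leaving out each mouse. Distances of 20 kb, leaving out the CGs between *Vmn1r53* and *Vmn1r-ps34*, and pairing the sexes within strain, were added after seeing the data. Calls were tested on simulated data. The tools were Python 3.11.15 with scipy 1.17.1 for tests, pandas 2.3.3 and numpy 2.4.6 for tables, and matplotlib 3.10.9 for figures.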

Additional observations from a re-analysis of the deposited data

Results flagged for a closer look

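The CHH level near *Vmn1r* genes in the B6 male was 0.250%, the lowest of the 4 parents, and the next lowest was 0.579%. The gap was 0.878 of the range of the 4 values, above Dixon's 95% critical value for 4 samples. Values in 20 groups of samples were examined this way, and chance alone marks about 1 group in 20. Over all CHH cytosines of the genome the B6 male was also the lowest parent, with 0.419%, where the other 3 had 0.677% to 0.900%.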

How the results depend on the processing

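Calls between the female parents (17) rose to 47 at more than 30 points and fell to 2 at more than 70 points and to 0 in gene bodies, where 229 cytosines were tested. Under 7 other settings (read minimum of 5 or 20, adjusted Fisher's test, untagged reads, 20 kb, no isolated calls, thinned coverage) they numbered 13 to 20. Calls between the male parents (0) became 4 with a minimum of 5 reads, 3 at more than 30 points and 24 within 20 kb. In bins of 500 bp, 52.9% of the female calls fell in the fullest bin, against 23.5% in the fullest fragment, since bins join fragments. Females minus males (0.39 points) became -0.482 with 20 reads and -9.27 in gene bodies, which rest on 1 CG, and without single mice ran from -0.331 to 1.32, turning sign without the B6 female, the DBA male or the BXD female. F1 mice minus parents (0.94) became -0.0842 with 5 reads and ran from 0.230 to 1.88 without single mice, and over each mouse's own CGs it was 3.27 (exact permutation p = 0.0571). The differences from all CGs (41.1 to 41.7), *Olfr* (6.54 to 7.09) and *Vmn2r* genes (9.89 to 10.3) kept their sign without any mouse. They were 34.1, 5.44 and 4.91 points over each mouse's own CGs, and 45.7, 11.1 and 14.3 points without the CGs between *Vmn1r53* and *Vmn1r-ps34*. Paired within strain or cross, females minus males was again 0.39 points (exact permutation p = 0.75, 4 pairs, chosen after seeing the data). Replicate numbers paired nothing, since each strain and sex had 1 mouse. At 10 reads the depth limits calls to large differences.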
